A study of Mus musculus with 12 samples.

Results

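Recurrent enhancer loci were stretches of mouse liver chromatin at which nearly every width class of the deposited enhancer regions was present. The enhancer table held 406518 regions, and all but 85 of them had 1 of 12 fixed widths between 82 and 192 bp. Each width had its highest mean level in a different library, so a width appears to mark the library in which a region was found, although no source states this. Overlapping regions were merged into 197768 loci. The 5247 loci (2.65%) that held regions of 10 or more of the 12 widths, with mitochondrial DNA left out, are described here. They were thus chosen by the regions found in these libraries, and each was represented by its region with the highest mean level over all libraries. Levels here are a description of that choice.

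The livers came from wild-type C57BL/6N males on standard chow, 19 to 20 weeks of age. By oral gavage over 4 days the mice were given distilled water (control), 10 mg/kg of atorvastatin, a statin that blocks HMG-CoA reductase, or 100 mg/kg of PCN (pregnenolone 16α-carbonitrile), an activator of the mouse pregnane X receptor PXR. All mice were then fasted for 12 h. Each group had 4 libraries made from 100000 nuclei each, and whether a library was 1 mouse is not stated, so p-values measure only the spread between these libraries, which may be technical. In bulk liver, fewer cells of a type and less open DNA per cell cannot be told apart.

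ATAC-seq counts the cuts that the transposase Tn5 makes in DNA that is not wrapped tightly in nucleosomes. Enhancers are such open stretches outside gene starts, where transcription factors bind and from where they act on genes nearby or far away. In hepatocytes many are held open by factors such as HNF4A, the FOXA family and C/EBP proteins, while nuclear receptors such as PXR act on elements that are often already open. Statins lower sterol levels in the cell, to which the factor SREBP2 responds by raising the genes of cholesterol synthesis and uptake.

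DNA sequence was at hand for windows of 300 bases around gene starts listed by RefSeq (GRCm38.p6), from 250 bases before the start to 50 after it. It is therefore shown for loci that lay across a listed start. Of the 5247 loci, 142 touched such a window, and 112 of them covered at least 100 bases of 124 windows. Starts of long noncoding RNAs made up 95 of these 124 windows (76.6%), against 35.3% of all 32851 listed windows. Starts of protein-coding genes made up the other 29 (23.4%, against 64.7%).

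The first set shows loci at the start of a protein-coding gene or, for 6430573P05Rik, of a noncoding RNA. Of 5 protein-coding starts examined, the 3 with the most CCAAT boxes are shown, and Ip6k2, with 1 box, and Pik3ca, with 0, are not. Capitals mark the CCAAT box (CCAAT, or ATTGG on the other strand) in the first 3 and the GC box (GGGGCGGG, or CCCGCCCC on the other strand) in the last. The bases are those before the listed start that the locus covered, written 5′ to 3′ on the strand of the gene. They lie at chr3:90293026-90293180 for Gatad2b, chr6:48601854-48602006 for Zfp775, chr7:143830085-143830213 for Dhcr7 and chr3:79287222-79287413 for 6430573P05Rik, all on the plus strand.
Gatad2b: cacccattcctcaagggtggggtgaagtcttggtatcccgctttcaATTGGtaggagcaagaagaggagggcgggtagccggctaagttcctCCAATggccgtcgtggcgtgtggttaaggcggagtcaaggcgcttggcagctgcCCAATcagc
Zfp775: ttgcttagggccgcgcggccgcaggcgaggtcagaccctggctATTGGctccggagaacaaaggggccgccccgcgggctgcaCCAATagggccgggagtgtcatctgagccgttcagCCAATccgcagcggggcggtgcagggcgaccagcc
Dhcr7: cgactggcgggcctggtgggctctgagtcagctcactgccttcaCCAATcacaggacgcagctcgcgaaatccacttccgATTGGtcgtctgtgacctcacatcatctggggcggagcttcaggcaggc
6430573P05Rik: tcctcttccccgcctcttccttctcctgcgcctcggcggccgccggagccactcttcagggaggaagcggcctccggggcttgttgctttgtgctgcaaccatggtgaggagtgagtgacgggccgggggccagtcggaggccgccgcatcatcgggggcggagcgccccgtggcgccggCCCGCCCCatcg

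The second set shows 3 noncoding RNA starts whose covered bases before the start hold the letters CAAAGTCCA, a form of the HNF4A motif, on either strand. In a separate count over whole windows of any gene type, covered or not, 4 of 124 windows held the letters. HNF4A is a nuclear receptor that defines hepatocytes. The stretches lie at chr7:134022530-134022711 (plus strand) for Gm39103, chr13:23804657-23804838 (minus strand) for Gm11337 and chr6:98402685-98402818 (plus strand) for Gm32646.
Gm39103: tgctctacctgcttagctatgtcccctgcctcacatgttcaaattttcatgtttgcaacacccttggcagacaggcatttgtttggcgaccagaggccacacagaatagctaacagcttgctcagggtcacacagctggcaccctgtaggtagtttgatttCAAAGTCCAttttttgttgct
Gm11337: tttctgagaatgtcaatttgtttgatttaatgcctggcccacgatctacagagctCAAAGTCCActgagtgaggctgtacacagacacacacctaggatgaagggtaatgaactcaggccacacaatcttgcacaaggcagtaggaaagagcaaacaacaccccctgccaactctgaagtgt
Gm32646: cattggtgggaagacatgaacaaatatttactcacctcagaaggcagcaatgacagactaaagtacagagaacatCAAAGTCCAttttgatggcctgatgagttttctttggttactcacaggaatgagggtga

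Among the motifs searched on both strands in the 124 windows, the CCAAT box was found in 52 (41.9%, against 37.4% of all listed windows) and the GC box in 27 (21.8%, against 16.5%). The HNF4A letters were found in 4 windows (3.23%, against 0.475%), the CTCF motif in 5 (4.03%, against 2.43%) and the SREBP motif TCACNCCAC in 3 (2.42%, against 1.24%). The shares of the E-box CACGTG (7.26% against 7.15%), the AP-1 site TGACTCA (5.65% against 5.20%), the FOXA site TGTTTAC (4.03% against 3.65%) and the ETS site CCGGAAGT (4.03% against 3.89%) lay close to those of all windows. The cyclic AMP element TGACGTCA was found in 1 window (0.806%, against 1.79%). No window held the letters searched for NRF1 or the nuclear receptor repeats DR1 and DR4, which were found in 0.971%, 0.0396% and 0.0152% of all listed windows. E-box and CRE matches read the same on both strands, and a GC box can overlap another motif. These are counts of letters and say nothing of which factor was bound.

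Levels are given in CPM, a count scaled to the library's total of enhancer counts. Fold changes were scaled to the counts left after low regions were removed, times a TMM factor. Those counts were 3814962 in atorvastatin 3, against a total of 8081817. The factor was 1.57 in control 3 and 0.925 to 1.05 in the other libraries. A fold change can thus differ from the CPM beside it. The name constitutive held only in part. Libraries 3 of the control group and 3 of the atorvastatin group stood apart from the other 10, so results are given with and without them. A count above 0 in every library was found at 3480 of the 5247 loci (66.3%). In control 3, 1540 loci (29.4%) held 0 counts, and in atorvastatin 3, 335 (6.38%) did. Of all enhancer regions, 68.6% held 0 counts in control 3 and 27.4% in atorvastatin 3. Control 4 was shallower than control 3, with 1256648.5 against 1530063.5 enhancer counts. It held 0 counts at 30 loci (0.572%) and at 38.0% of all regions. No locus was at 0 in any of the other 9 libraries. With 0 counts, control 3 allows up to 3 counts, or 1.96 CPM, counting error only, whereas the 1540 loci had a median of 6.63 CPM in the mean of the other 11 libraries.

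The loci on which control 3 was high were others. Its width class was 192 bp, which 1075 loci held. There its median level was 23.2 CPM, against 6.25 to 13.1 CPM in the other 11 libraries. At the 4172 loci without that width its median was 3.27 CPM, against 4.58 to 8.36 CPM. Of the 1540 loci at 0 in control 3, 8 held a 192 bp region. The 192 bp class appears to mark regions found in control 3, so these splits follow that library's own levels and are a description only. Atorvastatin 3 had the lowest share of its counts in the representative regions, 2.94%, against 4.13% to 5.41% in the other 11 libraries. Across the loci, the median correlation of log2(CPM + 1) with the other libraries was 0.335 for control 3, 0.390 for atorvastatin 3, 0.545 for control 4 and 0.677 to 0.774 for the remaining 9, a description over loci that share depth and regions.

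**Figure D1:**
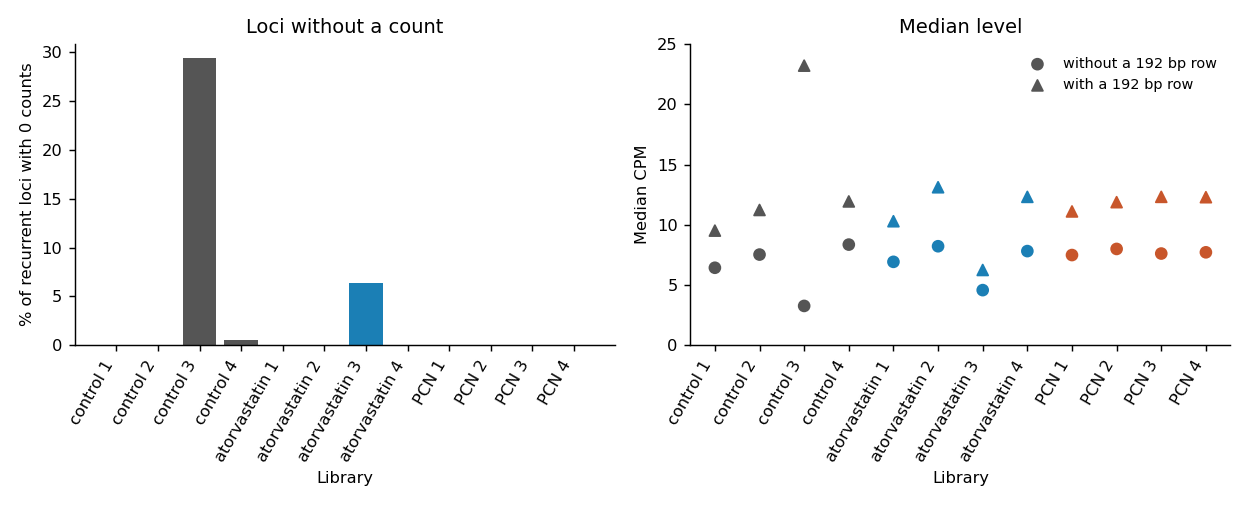
Percent of the 5247 loci with 0 counts in each library (left) and median CPM of loci with and without a 192 bp region (right). Control 3 has 29.4% of loci at 0, apart from every other library, and 68.6% of all enhancer regions at 0. Its median of 23.2 CPM at loci with a 192 bp region follows from a split by its own width class.

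At Dhcr7, which encodes the enzyme of the last step of cholesterol synthesis, the locus overlapped the start of the gene and held all 12 widths. Its level was 20.2, 20.2, 17.6 and 8.36 in control libraries 1 to 4. It was 25.3, 19.0, 11.1 and 12.9 with atorvastatin, and 16.5, 19.3, 24.3 and 16.7 with PCN. The groups overlapped, and the log2 fold changes against control were 0.22 ± 0.34 (SE) with atorvastatin and 0.24 ± 0.34 with PCN. The locus at Gatad2b, a subunit gene of the NuRD chromatin complex, ranged from 9.84 CPM (atorvastatin 3) to 37.1 CPM (PCN 3). The locus at Gm11337, 1 of those with the HNF4A letters, held 0 counts in control 3 and 5.99 to 12.2 CPM in the other 11 libraries.

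Recurrence and level went together, and the level was part of what chose the loci. Loci of a single width numbered 146583 with a median of 0.687 CPM, those of 9 widths 3357 with 4.89 CPM, and those of 10, 11 and 12 widths 2895, 1877 and 475 with 6.57, 9.42 and 15.0 CPM. Just outside the threshold, loci of 9 widths ran from 1.84 to 29.1 CPM. Just inside it, loci of 10 widths ran from 2.19 to 40.6 CPM. Over all 5247 loci the lowest mean level was 2.19, the median 7.98 and the highest 56.3 CPM. The merged loci were 146 to 779 bp long, with a median of 267 bp. All their regions together made up 13.8% of the table.

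**Figure D2:**
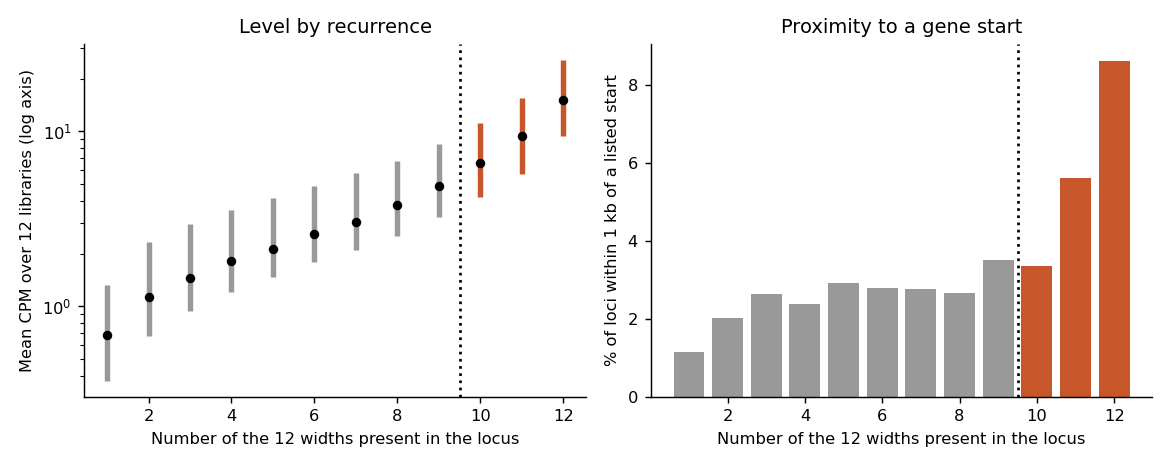
Mean CPM over 12 libraries (log axis, points are medians and bars span the 10th to 90th percentile of loci) and percent of loci within 1 kb of a listed gene start, by the number of widths in a locus. The recurrent loci (orange, right of the dotted line) have medians of 6.57 to 15.0 CPM, and the share near a start was highest, 8.63%, at 12 widths.

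The loci were mostly distal. A protein-coding gene body overlapped 2708 of them (51.6%, against 50.7% of the other loci), and exons and introns could not be told apart because only gene bodies were used. The median distance to a listed start was 19707.5 bp, against 29098 bp for the other loci, over the 5076 loci on chromosomes with listed starts. Within 1 kb of a start lay 235 loci (4.63%, against 1.47%). This share was 1.14% at loci of 1 width and 8.63% at loci of 12 widths. Chromosome X held 40 loci (0.762%, against 1.03%) and chromosome Y none. The loci did not form dense runs, since the median gap between neighbours was 137336 bp, and 480 had the next one within 10 kb.

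A locus was assigned to the nearest protein-coding gene when that gene lay within 50 kb, which placed 4489 loci at 3120 of 21900 genes (14.2%). Of these genes, 2251 had 1 locus and 43 had 5 or more. Nfia and Gse1 had the most, 9 each, followed by Arhgap26 and Itpr1 with 8. Nfia encodes a nuclear factor I protein, a factor that binds liver enhancers, and Itpr1 a calcium release channel. Genes with a locus were long, with a median of 46296 bp against 17146 bp over all genes, and a longer gene can collect more loci. The promoter table, which the choice of loci did not use, gave a median of 13.8 CPM for the most open promoter of genes without a locus, 26.3 with 1 locus, 30.5 with 2 to 4 and 39.1 with 5 or more.

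Recurrent loci took a larger share of all merged loci at genes of most pathway lists than over all protein-coding genes. The share of a list's merged loci that were recurrent was 2.94% over all protein-coding genes. It was 8.06% (37 of 459) for gluconeogenesis and fasting, 7.28% (27 of 371) for fatty acid and triglyceride synthesis, 6.05% (13 of 215) for cholesterol synthesis and uptake, and 5.48% (57 of 1040) for hepatic transcription factors. Plasma proteins (5.30%), bile acid and sterol disposal (5.53%), the circadian clock (5.57%) and acute phase genes (5.96%) lay between 5.30% and 5.96%, and fatty acid oxidation and ketogenesis at 4.29% (12 of 280). For drug metabolism under PXR and CAR the share was 2.99% (12 of 402), close to that of all genes, and for apolipoproteins 1 of 53 loci was recurrent, the one nearest to Apoa5. These lists were chosen with earlier results known, and the counts are a description without a test.

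Among gluconeogenesis and fasting genes, 16 of 30 had a locus. The insulin receptor substrate Irs2 and the fasting factor Klf15 had 5 each, the coactivator Ppargc1a 4, and G6pc, which encodes the enzyme that releases glucose, 2. Of 29 genes of fatty acid and triglyceride synthesis 15 had one, with 5 at the desaturase Scd1 and 4 at Acaca, the acetyl-CoA carboxylase of the committing step. Of 44 hepatic transcription factors 25 had one, among them Nfib with 6, Nr3c1 (the glucocorticoid receptor) with 3, and Hnf4a, Cebpa and Nr1i2 (PXR itself) with 1 each. Of 28 cholesterol genes 8 had one, with 3 at Scap, the sterol sensor that escorts SREBP2. Of 41 drug metabolism genes 10 had one, 1 of them at Cyp3a11, the classical target of PXR.

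By cell type, 10 of 20 hepatocyte markers had a locus, with 4 loci at Alb, the albumin gene, and 3 at Cps1 of the urea cycle. The recurrent share was 6.94% (15 of 216) for hepatocyte markers. It was 0.820% (1 of 122, at Tagln) for stellate cells and fibroblasts, 0.826% (1 of 121, at Id3) for Kupffer cells and 1.01% (3 of 298, at Eng, Gata4 and Kdr) for endothelium. Lymphocyte markers reached 5.29% (9 of 170), from Bach2 with 4, Ets1 and Klrb1c with 2 each and Cd4 with 1. Cholangiocyte markers reached 5.0% (7 of 140).

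**Figure D3:**
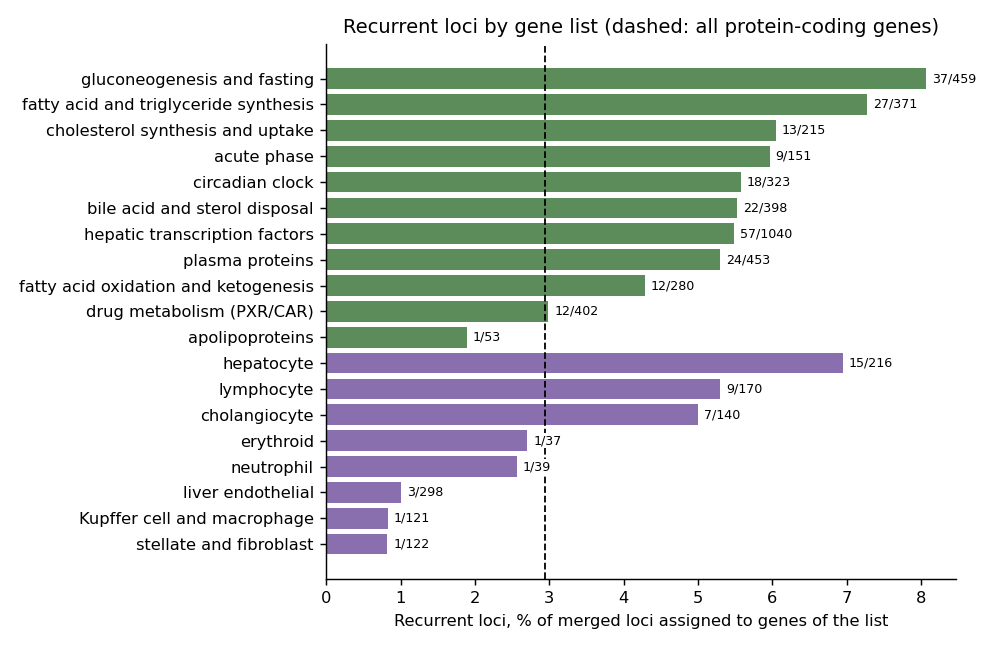
Percent of merged loci that were recurrent, for the genes of each list (green: pathways, purple: cell type markers), with the counts beside the bars. The dashed line is the 2.94% of all protein-coding genes, and hepatocyte markers lie above it while stellate, Kupffer and endothelial markers lie below.

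Outside the recurrent loci, a locus of 6 widths reached a mean of 84.2 CPM. The most open recurrent locus lay in the body of Chd9, a chromatin remodelling gene, at chr8:90908198-90908390, with a mean of 56.3 CPM. It held 46.2, 56.3, 113 and 58.1 CPM in the controls, 53.5, 54.1, 32.5 and 61.5 with atorvastatin, and 38.1, 37.7, 61.1 and 63.4 with PCN. Control 3 was the highest library and atorvastatin 3 the lowest, and the groups overlapped. Next was a locus in the body of Acaca, at chr11:84179566-84179758, with a mean of 51.5 CPM, which spanned 29.6 CPM in atorvastatin 3 to 96.4 CPM in control 3. A locus 67 bp from the start of the noncoding RNA D130051D11Rik had a mean of 47.1 CPM. It was followed by one in the body of Dgat2, which encodes the last enzyme of triglyceride synthesis (40.6 CPM), and one near Elovl5, a fatty acid elongase gene (38.6 CPM).

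The others among the 10 most open lay in the bodies of Ssc4d (37.7), Catspere2 (37.5), the forkhead factor gene Foxk1 (36.4), Sipa1l3 (36.0) and the corepressor gene Atn1 (34.2 CPM). Of the 10 representative regions, 9 were 192 bp wide and that of Ssc4d was 134 bp. Per length the locus in Chd9 held 29.3 CPM per 100 bp and that in Ssc4d 28.2, against a median of 4.92 over all recurrent loci. None of the 10 was past the test in any comparison. The least open loci lay in Larp1b (2.19 CPM), near Oxtr (2.54) and 341691 bp from Adgrl2 (2.77), and the one in Larp1b was the single locus too low to be tested.

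Some loci varied less between libraries than others. Over the loci at or above the median level, the coefficient of variation (SD over mean of the 12 CPM values) was lowest in the body of Abcc4, an efflux pump gene, at 0.137. That locus, at chr14:118667520-118667702, ran from 7.76 CPM (atorvastatin 4) to 12.0 CPM (control 2), with group means of 10.8 ± 1.41 (SD, n = 4) in control, 9.52 ± 1.36 with atorvastatin and 9.77 ± 1.38 with PCN. The log2 difference of PCN from control was −0.08, with a nominal 95% interval from −0.78 to 0.62. The locus 36 bp from Gstt2, a glutathione transferase gene, varied by 0.139 around 18.6 CPM. Those at Sox5, Gpr84 and Map3k1 followed at 0.140 to 0.148. Over all recurrent loci the median coefficient was 0.423, and 0.279 without control 3 and atorvastatin 3. It was 1.69 at loci of 1 width.

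The most variable loci at that level differed through control 3. Near Tmem176b, at chr6:48825126-48825272, control 3 held 50.3 CPM and the other 11 libraries 3.56 to 11.9. Near Slc44a1, a choline transporter gene, it held 41.8 CPM against 0.124 to 7.67. Near Mbl2, which encodes the mannose-binding lectin of complement, it held 41.2 CPM against 0.796 to 9.76. At Dag1 and Ppp1r36 it held 43.5 CPM each. These 5 loci had coefficients of 1.17 to 1.39. Without the 2 libraries that stood apart, the log2 fold change of PCN against control went from −0.09 ± 0.60 to 1.29 ± 0.37 near Mbl2 and from −0.19 ± 0.57 to 1.08 ± 0.36 near Dag1, so the direction there turned with these libraries.

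The comparison of PCN with control asked where a PXR activator opened or closed chromatin. No recurrent locus passed the test (edgeR quasi-likelihood, adjusted p under 0.05): 0 of 5246 tested, as 0 of all 182115 enhancer regions tested, a background of 0%. DESeq2 and limma-voom called 0 as well. An unadjusted p under 0.05 was found by edgeR at 137 loci (2.61%), 99 of them higher, against 1.93% of all regions. With no difference at all a share of about 0.05 is expected, and both shares lay below it. DESeq2 gave 186 loci at that unadjusted level, where 6899 of 182115 regions had such a p. Without control 3 and atorvastatin 3 the edgeR count was 418, 260 of them higher, where 14892 of 192874 regions had such a p. With loess offsets it was 464, 19 of them higher, where 14337 of 182115 regions did. With TMM scaling it was 275 without control 2, 252 without atorvastatin 3, 81 without PCN 3 and 69 without PCN 4. Over all regions the corresponding counts were 7297 of 216781, 7859 of 181613, 2206 of 182622 and 2281 of 218413. The median log2 fold change was 0.15 over the loci and 0.17 over all regions, and 3362 loci (64.1%, background 62%) lay above 0. Without control 3 and atorvastatin 3 the median was 0.06. The shift depended on the scaling: the median was 0.00 with library totals and −0.21 with loess offsets, where that of all regions was −0.17. Groups without overlap were found at 191 loci higher with PCN (3.64%, background 3.99%) and 43 lower (0.820%, background 0.817%).

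The loci of smallest p on the higher side lay near Vegfa, near Hnrnpll and in Morn1, and none passed the test. Their representative regions were all 182 bp wide, the class highest in atorvastatin 3, so they appear to be regions found in that library. Near Vegfa, which encodes the vascular growth factor made by hepatocytes for the endothelium, the locus was 791 bp from the gene at chr17:46016020-46016202. It held 5.17, 7.53, 1.96 and 6.76 CPM in the controls, 13.7, 12.8, 16.8 and 21.3 with PCN, and 8.24, 13.5, 11.8 and 16.3 with atorvastatin. All 8 treated libraries were above all 4 controls, but control 3 held only 3 counts there and control 4 only 8.5. The log2 fold change was 1.58 ± 0.42 with PCN and 1.42 ± 0.42 with atorvastatin (edgeR adjusted p = 1.00 for both), and 1.31 ± 0.31 and 1.01 ± 0.32 without the 2 libraries that stood apart. The most open promoter of Vegfa differed by 0.40 ± 0.27 with PCN (adjusted p = 0.918).

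The locus 34046 bp from Hnrnpll, a splicing regulator gene, had 9.42 to 13.1 CPM in the controls, 16.2 to 28.0 with PCN and 14.9 to 20.4 with atorvastatin, again without overlap. Its log2 fold changes were 1.10 ± 0.30 and 0.97 ± 0.29. In Morn1 the control range of 3.27 to 13.1 CPM overlapped the 11.4 to 17.1 CPM with PCN, with a log2 fold change of 1.29 ± 0.43. Loci of smallest p were picked for their difference, so these values describe and do not test.

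On the lower side with PCN, the locus in Chd9 at chr8:90892564-90892746, another one than the most open locus of that gene, held 8.43, 21.1, 18.6 and 20.3 CPM in the controls. It held 6.73, 6.11, 7.54 and 4.57 with PCN, without overlap, and 4.87, 8.87, 4.58 and 7.65 with atorvastatin, with overlap. The log2 fold change with PCN was −1.31 ± 0.38 and stayed at −1.34 without the 2 libraries. Near S100a9, a calgranulin gene of neutrophils, and in Ppp2r1b, a scaffold gene of protein phosphatase 2A, the controls lay above the PCN libraries without overlap, and control 3 was far above the other controls. In Ppp2r1b control 3 held 42.5 CPM, the other controls 5.98 to 8.36 and the PCN libraries 1.57 to 4.88, and the log2 fold change went from −1.76 ± 0.52 to −0.93 ± 0.35 without the 2 libraries. Near S100a9 control 3 held 35.3 CPM and the other controls 5.74 to 8.75, and the change went from −1.83 ± 0.54 to −1.17 ± 0.37. The representative regions in Ppp2r1b and near S100a9 were 192 bp wide, the class highest in control 3, and that in Chd9 was 182 bp wide. The summed promoter level of 16 neutrophil markers ran from 88.4 to 165 CPM in control, 87.3 to 139 with PCN and 73.1 to 231 with atorvastatin, and its part in the S100a9 values was not tested.

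**Figure D4:**
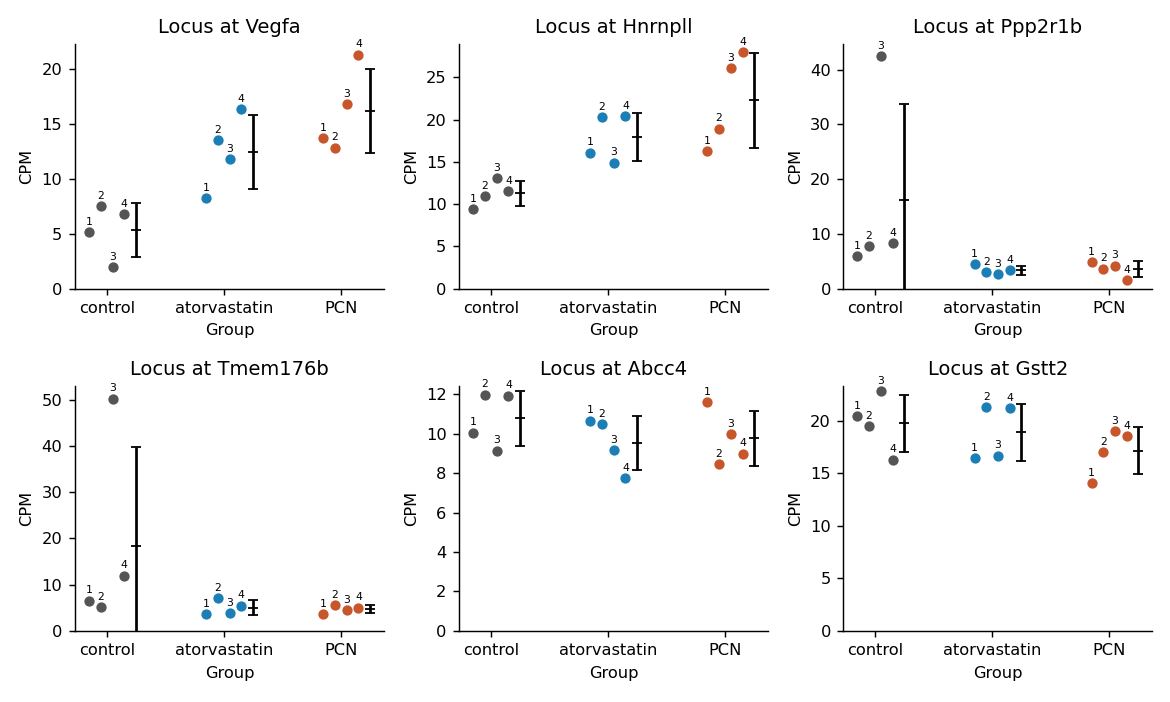
CPM per library (numbered points) with mean ± SD per group (n = 4) at 6 recurrent loci, y axes from 0. At the loci of Vegfa and Hnrnpll all treated libraries lie above all controls, at those of Ppp2r1b and Tmem176b control 3 lies apart, and at those of Abcc4 and Gstt2 the groups overlap.

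The comparison of atorvastatin with control asked the same of a statin. It shares the control libraries with the comparison above, so the values of both are given side by side and no overlap is read from them. No locus passed: 0 of 5246 by edgeR, background 0%, and 0 by DESeq2 and limma-voom. At an unadjusted p under 0.05 there were 195 loci (3.72%), 144 of them higher, against 2.39% of all regions. DESeq2 gave 285 loci, where 9049 of 182115 regions had such a p. Both edgeR shares lay below the 0.05 expected with no difference at all. Without control 3 and atorvastatin 3 the edgeR count was 286, 190 of them higher, where 10643 of 192874 regions had such a p. With loess offsets it was 500, 71 of them higher, where 15545 of 182115 regions did. With TMM scaling it was 274 without control 2 and 125 without atorvastatin 3, where 6798 of 216781 and 4514 of 181613 regions did. The median log2 fold change was 0.13 over the loci and 0.12 over all regions, and 3196 loci (60.9%, background 58.4%) lay above 0. It was 0.06 without the 2 libraries and −0.13 with loess offsets. Without overlap were 58 loci higher (1.11%, background 1.32%) and 46 lower (0.877%, background 0.729%).

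Besides Vegfa and Hnrnpll, the locus in Ndufa7, a gene of respiratory complex I, had a small p on the higher side. It held 3.59 to 7.78 CPM in the controls and 7.42 to 16.2 with atorvastatin, which overlapped, with a log2 fold change of 1.23 ± 0.38. On the lower side Ppp2r1b (−1.74 ± 0.52), the same locus in Chd9 (−1.09 ± 0.37) and Prg3, a granule protein gene of eosinophils (−1.49 ± 0.49), had the smallest p. In Prg3 control 3 held 19.0 CPM, the other controls 5.17 to 7.56 and the atorvastatin libraries 1.11 to 4.51. The change there was −0.96 ± 0.37 without the 2 libraries. The representative region in Ndufa7 was of the 182 bp class, highest in atorvastatin 3, and that in Prg3 of the 192 bp class, highest in control 3.

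The 192 and 182 bp widths were highest in control 3 and atorvastatin 3, so a split of the loci by these widths follows those libraries' own levels and is a description only. At loci without a 192 bp region the median log2 fold change was 0.21 with PCN and 0.19 with atorvastatin, and at loci with one −0.06 and −0.10. Without control 3 and atorvastatin 3 these medians were 0.04 and 0.05 against 0.11 and 0.10. Likewise, loci without the 182 bp class of atorvastatin 3 had a median of −0.14 with atorvastatin and those with it 0.27, which became −0.02 and 0.10 when both libraries were left out.

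**Figure D5:**
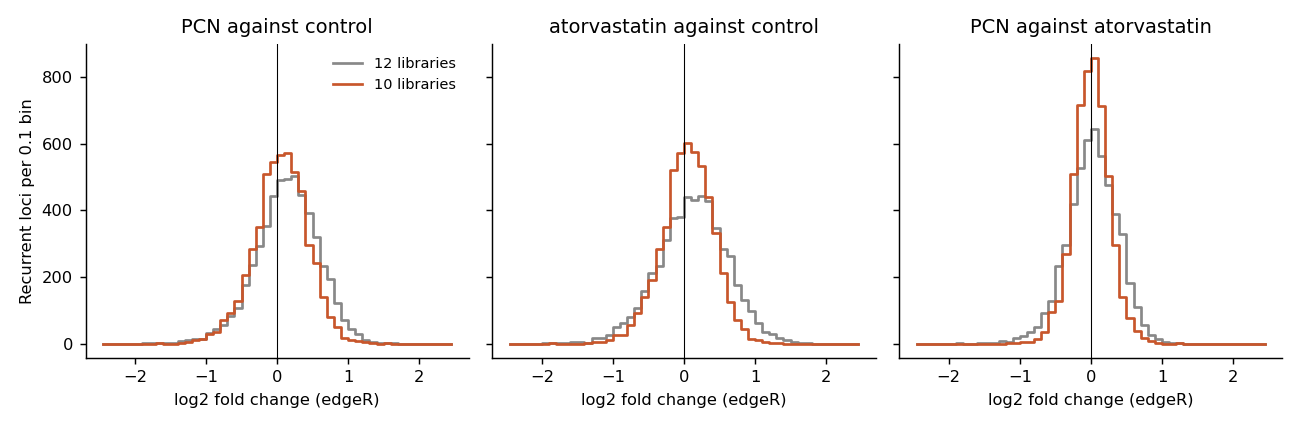
Number of recurrent loci per 0.1 bin of log2 fold change in the 3 comparisons, with all 12 libraries (grey) and without control 3 and atorvastatin 3 (orange). With 10 libraries the distributions are narrower, and their medians are 0.06, 0.06 and 0.00.

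In the comparison of PCN with atorvastatin, by edgeR 0 of 5246 loci passed (background 0%), as with DESeq2 and limma-voom. An unadjusted p under 0.05 was found at 25 loci (0.477%), 7 of them higher with PCN, against 0.465% of all regions. Both shares lay below the 0.05 expected with no difference at all. The count of such loci was 100 without control 3 and atorvastatin 3, where 3728 of 192874 regions had such a p. It was 94 without control 3, 48 without atorvastatin 2, 16 without control 2 or PCN 3, 10 without atorvastatin 3 and 6 without PCN 4. Over all regions, 4460 of 217214 had such a p without control 3 and 2270 of 184968 without atorvastatin 2. The counts were 1631 of 216781 without control 2 and 513 of 182622 without PCN 3. They were 243 of 181613 without atorvastatin 3 and 938 of 218413 without PCN 4. The median log2 difference was 0.03, with 2798 loci (53.3%, background 55.4%) above 0. Without overlap were 66 loci higher with PCN (1.26%, background 1.72%) and 31 lower (0.591%, background 0.514%). Of the tested loci, 1638 (31.2%) had a nominal 95% interval within ±1 on the log2 scale, that is, within a 2-fold difference. Without the 2 libraries 4594 (87.6%) had one. The corresponding shares were 23.0% and 67.1% for PCN against control and 21.9% and 65.2% for atorvastatin against control. For the remaining loci the interval reached a 2-fold difference. These intervals are narrower than the test implies, so the shares within ±1 are upper estimates. The median count per locus was 10 in control 3 and 116 in atorvastatin 2. On simulated counts the enhancer test called few of the changed regions, so 0 calls do not show that the loci did not differ.

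Smallest p between the 2 drugs had the loci near Krt18, a keratin gene of hepatocytes (0.84 ± 0.33 higher with PCN), near Slc45a1 (0.81 ± 0.33) and near Adam24 (0.95 ± 0.39), and on the lower side those near Mdga1 (−1.12 ± 0.38) and Gm46608 (−1.29 ± 0.48) and in Scly, the gene of selenocysteine lyase (−0.84 ± 0.31). Near Mdga1 the PCN libraries held 4.80 to 6.72 CPM and the atorvastatin libraries 9.73 to 11.7, with controls at 5.89 to 9.95. In Scly they held 8.86 to 13.2 and 16.5 to 17.8 CPM, with controls at 9.82 to 22.2. Both pairs were without overlap, and none of these 6 passed the test. The representative regions near Mdga1 and Gm46608 and in Scly were all of the 182 bp class, highest in atorvastatin 3.

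By pathway, the median log2 fold change over gluconeogenesis and fasting loci was 0.18 for PCN and 0.24 for atorvastatin, and 28 and 27 of 37 lay above 0, with 0 past the test. Over all recurrent loci the medians were 0.15 and 0.13, and 64.1% and 60.9% lay above 0 (62% and 58.4% of all regions). Without control 3 and atorvastatin 3 the medians of the gluconeogenesis and fasting loci were 0.11 and 0.14. The locus 1222 bp from G6pc held 8.25, 15.8, 16.7 and 13.9 CPM in the controls and 15.9, 27.3, 23.6 and 28.7 with PCN. PCN 1 lay within the control range and the other PCN libraries above it. The log2 fold change was 0.91 ± 0.33 with PCN (edgeR adjusted p = 1.00) and 0.40 ± 0.33 with atorvastatin. The most open G6pc promoter, measured in the other table, differed by 1.03 ± 0.34 and 0.80 ± 0.34 (adjusted p = 0.918 and 1.00). The locus near Fbp1, the gene of fructose bisphosphatase, differed by 0.72 ± 0.44 and 0.66 ± 0.44, and that near Klf15 by 0.38 ± 0.33 and 0.26 ± 0.33.

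Drug metabolism loci, 12 in all, had medians of 0.45 with PCN and 0.30 with atorvastatin, or 0.29 and 0.17 without the 2 libraries, and none passed. In Por, which encodes the electron donor of the cytochromes P450, the more open of 2 loci held 12.1, 23.2, 6.21 and 31.4 CPM in the controls and 26.4, 35.7, 23.9 and 28.4 with PCN. The groups overlapped, at 0.68 ± 0.39. The other locus in Por differed by 0.05 ± 0.32. In Cyp4f15, a fatty acid hydroxylase gene, the controls held 6.76 to 11.4 CPM and the atorvastatin libraries 13.1 to 16.1 without overlap, at 0.82 ± 0.33 (adjusted p = 1.00). Its difference with PCN was 0.44 ± 0.33.

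Cholesterol genes had 13 loci with medians of 0.31 with PCN and 0.15 with atorvastatin, 0.11 and 0.07 without the 2 libraries, and 0 past the test. Near Insig1, which encodes the sterol-regulated retention factor of SREBP, the locus had a mean of 26.4 CPM and differed by 0.03 ± 0.33 with atorvastatin and 0.35 ± 0.33 with PCN. Near Sc5d, the gene of sterol desaturation, it held 10.6, 14.0, 18.3 and 15.1 CPM in the controls and 18.0, 24.3, 18.9 and 16.9 with atorvastatin. Those ranges overlapped, and the difference was 0.77 ± 0.28 (adjusted p = 1.00).

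Lipid loci were as varied. The 27 loci of fatty acid and triglyceride synthesis had medians of 0.15 and 0.18, with 16 of 27 above 0 in both comparisons (64.1% and 60.9% of all recurrent loci). The 12 of fatty acid oxidation and ketogenesis had medians of 0.56 and 0.25. Without the 2 libraries these were 0.20 and 0.10 for synthesis and 0.32 and 0.20 for oxidation. The locus 11647 bp from Apoa5, an apolipoprotein gene that governs plasma triglycerides, held 14.8 to 29.1 CPM in the controls, 23.9 to 32.3 with PCN and 12.5 to 30.5 with atorvastatin. It differed by 0.61 ± 0.32 in both comparisons, on the scaling of the fit and not of CPM. Near Fabp1, the liver fatty acid binding protein gene, the differences were 0.58 ± 0.37 with PCN and −0.10 ± 0.37 with atorvastatin.

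The 22 bile acid and sterol disposal loci had medians of 0.28 with PCN and 0.08 with atorvastatin, or 0.07 and 0.01 without the 2 libraries. The locus 764 bp from Nr0b2, which encodes SHP, the feedback repressor of bile acid synthesis, had a mean of 28.8 CPM and differed by 0.16 ± 0.32 and −0.03 ± 0.32. Near Scarb1, the HDL receptor gene, they were 0.46 ± 0.31 and 0.71 ± 0.30. The 57 loci of hepatic transcription factors had medians of 0.26 and 0.15 (0.15 and 0.11 without the 2 libraries), with that near Cebpa at 0.23 ± 0.28 and 0.27 ± 0.28 and that near Nfib at 0.06 ± 0.30 and −0.01 ± 0.30.

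Near Alb the most open locus held 14.4, 15.9, 0 and 8.36 CPM in the controls, the third being control 3, and 13.4 to 24.8 CPM with PCN. Its difference was 0.84 ± 0.55 with all libraries and 0.44 ± 0.29 without the 2. Fgb and Igfbp2, genes of fibrinogen and of a binding protein of insulin-like growth factors, had loci at 0 in control 3 as well, with differences of 0.36 ± 0.54 and 0.60 ± 0.54 that became 0.02 and 0.22. The 24 plasma protein loci had medians of 0.29 with PCN and 0.20 with atorvastatin, or 0.11 and 0.17 without the 2 libraries. The 9 acute phase loci had 0.36 and 0.31, and without the 2 libraries 0.02 and 0.10. In the circadian clock, the locus in Arntl, which encodes BMAL1, had a mean of 25.2 CPM and differed by 0.28 ± 0.27 and 0.41 ± 0.27. That near Noct, the nocturnin gene, held 10.5 to 14.3 CPM in the controls and 15.1 to 20.2 with PCN without overlap, at 0.57 ± 0.35.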

How the data were processed

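The authors deposited ATAC-seq tables of expected counts per region, in steps of 0.5, for 406518 enhancer and 43511 promoter regions in 12 liver libraries. Per the submitters' processing notes the tools were Trimmomatic, STAR 2.7.9a, bedtools 2.30.0 and HOMER 4.10 with build mm10; the role of each, the rule for a region and any shift of read ends to the transposase cut are not given in the sources used here. Coordinates are printed as deposited, and whether they count from 0 or 1 is not stated there. Library totals ran from 1256648.5 to 13078975.5 enhancer counts, and intervals and floors of 3 counts cover counting error only.

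Counts were rounded and tested over all enhancer regions with edgeR 4.0.16 (R 4.3.3; TMM factors, low regions removed by filterByExpr at 10 counts and 15 in total, quasi-likelihood test, Benjamini-Hochberg adjustment, threshold 0.05), with 3 groups in 1 fit. The SE is the size of the log2 fold change divided by the square root of the F statistic. Intervals are nominally 95% and multiply that SE by the limit of a normal distribution. They are therefore somewhat narrower than the F test implies. Alternatives used DESeq2 1.42.0, limma 3.58.1, other scalings and filters, and fewer libraries. The scripts were tested on simulated data, where few changed enhancer regions were called. The nearest gene is the nearest RefSeq protein-coding gene body (GRCm38.p6) without strand. Named loci were the 10 of highest and 3 of lowest mean CPM, per comparison and direction the 3 of smallest p where fewer than 5 passed, the 5 least and 5 most variable at or above the median level, and up to 3 of highest mean per pathway list. Loci named beside their sequence were chosen after their values were seen. The loci and gene lists were chosen with earlier results of these data known. Some genes and motifs searched are not reported here.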

Additional observations from a re-analysis of the deposited data

Results flagged for a closer look

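In 14 of 108 groups of 4 libraries 1 library lay farther from the other 3 than Dixon's 95% limit allows, and 8 of the 14 were control 3 on the high side. Chance gives about 1 in 20, a rate that does not apply here, since 6 of those 8 were loci named for their variability or small p. The share of recurrent loci with 0 counts was 29.4% in control 3, against 0.572% in the next control, and 6.38% in atorvastatin 3, against 0 in the other atorvastatin libraries. Of all enhancer regions, 68.6% held 0 counts in control 3, 38.0% in control 4 and 27.4% in atorvastatin 3. Control 3 held 96.4 CPM at the locus in Acaca (next control 45.6), 35.3 near S100a9 (8.75), 42.5 in Ppp2r1b (8.36), 50.3 near Tmem176b (11.9), 41.8 near Slc44a1 (5.98), 43.5 near Dag1 (6.89) and 41.2 near Mbl2 (4.59).

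Atorvastatin 3 was low at the locus in Acaca, with 29.6 CPM against 49.4 in the next library of its group. PCN 3 was high in Sipa1l3 (51.5 against 35.0 CPM) and low near Mbl2 (6.05 against 9.29 CPM). Atorvastatin 1 was high in Sox5 (14.4 against 11.1 CPM) and atorvastatin 4 near Map3k1 (11.9 against 9.03 CPM).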

How the results depend on the processing

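Of the results that answer a comparison, 274 alternative values were counted as the same, 11 as moved and 8 as reversed. A median counted as the same if it kept its sign and stayed within 0.2212 log2, the SD of the median level between libraries of a group. A median that went from 0.15 to 0.32 was thus the same. Counts of calls had to be equal, and other numbers could vary within a set range. All 464 values of the loci of smallest p and of the number of loci near a gene were counted as the same. A locus of smallest p had only to keep its sign and not pass the test. These loci were picked from the same libraries for their difference, so a kept sign was likely beforehand. The PCN change in Ppp2r1b, −1.76 with all libraries and −0.93 without control 3 and atorvastatin 3, thus counted as the same. The median log2 fold change of the recurrent loci was −0.21 (PCN against control) and −0.13 (atorvastatin against control) with loess offsets, and 0.38 for PCN against control with no filter. For PCN against atorvastatin it was −0.0009 with DESeq2 size factors, −0.0051 with library totals, −0.075 with loess offsets, −0.034 with a mean count of 30 or more, −0.0012 with DESeq2, and −0.0044 with the replicate block without control 3 and atorvastatin 3. The number of recurrent loci was 8604 with 9 or more widths, 2352 with 11 or more and 475 with 12. All regions of the loci held 39.6% of enhancer counts, against 5.08% for the representatives (median over libraries). Leaving out 1 library kept 0 calls, and the median ranged from 0.08 (without control 3) to 0.32 (without control 2 or control 4) for PCN against control, with 0.24 without PCN 2. It ranged from 0.05 (without control 3) to 0.27 (without control 2), with 0.26 without control 4, for atorvastatin against control, and from 0.0080 to 0.071 for PCN against atorvastatin. The cause of these changes was not tested.

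The labels do not say that replicate numbers pair the samples, and same-numbered libraries did not all deviate together (correlations of −0.027 to 0.180 for enhancers and −0.41 to 0.494 for promoters). Differently numbered libraries had correlations of −0.192 to 0.113 for enhancers and −0.701 to 0.652 for promoters. Libraries numbered 1, and those numbered 4, correlated positively in every pair for both. Those numbered 2 did so for enhancers and had both signs for promoters, while those numbered 3 had both signs for both. A replicate block gave 0 enhancer and 0 promoter calls in every comparison, with a median of 0.23 for PCN against control. Left without control 3 and atorvastatin 3 as well, a fit chosen after seeing the data, the block called 20 enhancer regions for PCN, 12 of them in 1 locus, and 4 for atorvastatin against control. Of the representatives 1 passed, 222809 bp from Tle4 (−1.65 ± 0.33, edgeR adjusted p = 0.0471). Of the 4 regions, 2 lay in a recurrent locus 33715 bp from Sdr9c7 and 2 near CYTB on mitochondrial DNA, names chosen after their values were seen. Without the 2 libraries and with no block, 6 promoters passed for PCN (Hamp, Tnfsf14, Mir6978, Gm29684 and 2 of AU019990) and 4 for atorvastatin (Hamp, Tnfsf14, Mir6978 and Gm29684), and DESeq2 called 1 with all libraries, Mir6978. Depth limits the loci in control 3, control 4 and atorvastatin 1, which had medians of 10, 11 and 19.5 counts.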
